A study of Homo sapiens with 12 samples.

Results

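HCT116 cells that received NH4Cl and TGF-β together were compared with untreated HCT116 cells. The members were the 3 libraries labelled with both agents, called the combined libraries, and the 3 control libraries. They make up 6 of the 12 RNA sequencing libraries in the series and were joined into 3 pairs by replicate number. HCT116 is an established human colorectal carcinoma line, commonly described as carrying inactivating mutations of TGFBR2, the gene of the type II TGF-β receptor. In the study's methods, the combined group had 10 mM NH4Cl for 23 h and then 200 pM TGF-β for 1 h, so any response to TGF-β was read at 1 h. The control group received neither agent. In the remaining groups, of 3 libraries each, cells had 10 mM NH4Cl alone for 24 h or 200 pM TGF-β alone for 1 h. The labels name the agents without doses or times. Values were deposited for 25733 genes, and the 12341 genes with a mean of at least 1 FPKM over the 12 libraries were tested. FPKM counts the fragments of a gene relative to its exon length and to the depth of the library, so that levels of different genes can be set side by side.

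NH4Cl is a source of ammonia, a weak base that enters acidic compartments such as lysosomes, takes up protons there and raises their pH. Lysosomes free the cholesterol of lipoproteins taken up by the cell, and the SREBP transcription factors act on genes of cholesterol and fatty acid synthesis when sterols in the endoplasmic reticulum are low. TGF-β is a secreted ligand whose type II and type I receptors phosphorylate SMAD2 and SMAD3, which bind SMAD4 and act on target genes in the nucleus.

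Reads on genes, recovered from the FPKM values, numbered 16647681, 16700597 and 15298508 in control replicates 1 to 3 and 15671088, 14807630 and 17620222 in combined replicates 1 to 3. Replicate 3 stood apart from replicates 1 and 2 in both groups. In the 6 libraries, the first principal component held 58.2% of the variance, with scores of 15.4, 16.5 and -16.5 in control replicates 1 to 3 and 4.81, 8.15 and -28.3 in the combined libraries. The second component held 19.95% and separated the groups, with scores of 6.94, 8.42 and 12.5 in control and -11.6, -12.2 and -4.07 in the combined libraries. Mitochondrial genes took 4.69% to 5.12% of reads in the replicate 3 libraries of these groups and 2.46% to 3.16% in the other 4. The labels do not say what a replicate number marks or whether the libraries of a group came from separate cultures, so p-values measure the spread between these libraries. The line was checked against its markers. The epithelial genes EPCAM, KRT8, KRT18, KRT19 and CDH1 summed to 2172 to 3317 FPKM over the 12 libraries, and the intestinal genes CDX1, CDX2, VIL1, LGALS4 and GPA33 to 99.15 to 120.2 FPKM. From control to combined libraries the epithelial sum went from a mean of 2656 to 2522 FPKM, lower in 3 of 3 pairs. KRT19 and CDH1 were each lower in 3 of 3 pairs, while KRT8 and KRT18 went both ways. EPCAM was higher in 3 of 3 pairs, at 244, 237 and 248 FPKM in control and 278, 269 and 267 FPKM with both agents. The intestinal sum went from a mean of 102.8 to 113 FPKM, higher in 3 of 3 pairs without overlap. Most of the intestinal sum was VIL1. VIL1 and CDX2 were each higher in 3 of 3 pairs, while CDX1, LGALS4 and GPA33 went both ways. Of 5 leukocyte markers, 4 were in the table and summed to 0.881 to 2.95 FPKM. The 5 fibroblast markers, mostly LUM, summed to a mean of 8.88 FPKM in control and 10.08 FPKM in the combined libraries, higher in 3 of 3 pairs. COL1A1 was at 1.14 to 2.62 FPKM and DCN at or under 0.0458 FPKM, each higher in 3 of 3 pairs, while COL3A1 stayed at or under 0.027 FPKM and COL1A2 at or under 0.0185 FPKM. The 4 endothelial markers summed to a mean of 2.62 FPKM in control and 4.11 FPKM in the combined libraries. Most of that sum was VWF, at 1.54, 1.66 and 3.90 FPKM in control replicates 1 to 3 and 2.44, 2.42 and 6.44 FPKM in the combined libraries. The other 3, CDH5, KDR and PECAM1, stayed at or under 0.355, 0.0574 and 0.0911 FPKM, and VWF, CDH5 and PECAM1 were each higher in 3 of 3 pairs.

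With both agents, 16 of 20 genes of cholesterol synthesis rose, 8 of 13 of cholesterol uptake and SREBP control, 6 of 12 of fatty acid synthesis and 12 of 41 of the lysosome. Among chemokine and cytokine genes 11 of 15 fell, among NF-κB subunit and feedback genes 7 of 20 and among DNA replication genes 15 of 27, and the remaining members of each list did not pass the threshold or went the other way. Over all genes, 1315 of 12341 rose, 10.7%, and 959 fell, 7.77%, which makes 2274 genes or 18.4%. The counts of every list below are to be read beside these shares. Lists and members were chosen with earlier results of these data known, so a rank among the lists is a description and no test. The split depends on scaling, with 1164 higher and 1139 lower when each library was centred on its median, 1196 and 1052 with a common sum of nuclear genes and 1242 and 816 with a common sum of all genes. These counts come from limma on log2(FPKM + 1) with the replicate number as a block, which compares libraries within a replicate number. A gene is said to rise or fall where its p-value, adjusted over all 12341 genes by the Benjamini-Hochberg method, was under 0.05, the threshold used throughout. At an unadjusted p under 0.05 there were 4053 genes. Changes are log2 fold changes of FPKM + 1, so 1 is a doubling of that sum. The median size of the change was 0.26 in the 2274 genes and 0.096 in all genes tested, and the median change of all genes was -0.0017. A size of at least 0.5 was reached by 148 genes that rose and 66 that fell, and a size of at least 1 by 9 and 6. All 3 pairs moved the same way in 2270 of the 2274 genes. Protein-coding genes made up 2066 of them, against 10715 of the genes tested.

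The count depended on the block. Without it limma called 117 genes, 0.948%, of which 87 rose and 30 fell. All 117 were also past the threshold with the block, and 1618 genes had an unadjusted p under 0.05. The median standard error was 0.062 with the block and 0.10 without it. The ranges of the 2 groups did not overlap for 2044 genes, 16.6% of those tested, and 1148 of these were among the 2274. Leaving out 1 library at a time gave 1309 genes without control replicate 1, 1169 without control replicate 2, 1472 without control replicate 3, 1469 without combined replicate 1 and 1457 without combined replicate 2. In all 12 such fits 933 genes were past the threshold, and in replicates 1 and 2 alone 1342 of the 2274 were. Among 168 genes that the rule for named genes took and that passed the threshold, 119 passed it in all 12 fits, 130 passed it in replicates 1 and 2, and 16 passed it without the block. The 16 included APOE, APOC1, GAA, NPC2, EBP, PKLR, LFNG, CA11, RAB33A and PNPLA7. Within the gene lists, limma without the block called 3 cholesterol synthesis genes, 2 LXR targets, and 1 gene each in cholesterol uptake, lysosome, Notch, glycolysis and acid-base transport. It called 0 in every other list, among which the count of members at an unadjusted p under 0.05 without the block was highest for the nuclear respiratory chain, at 13 of 69, and for the chemokines, at 9 of 15. With the block, voom called 2931 genes in all and 14 of the 15 chemokine and cytokine genes.

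**Figure D1:**
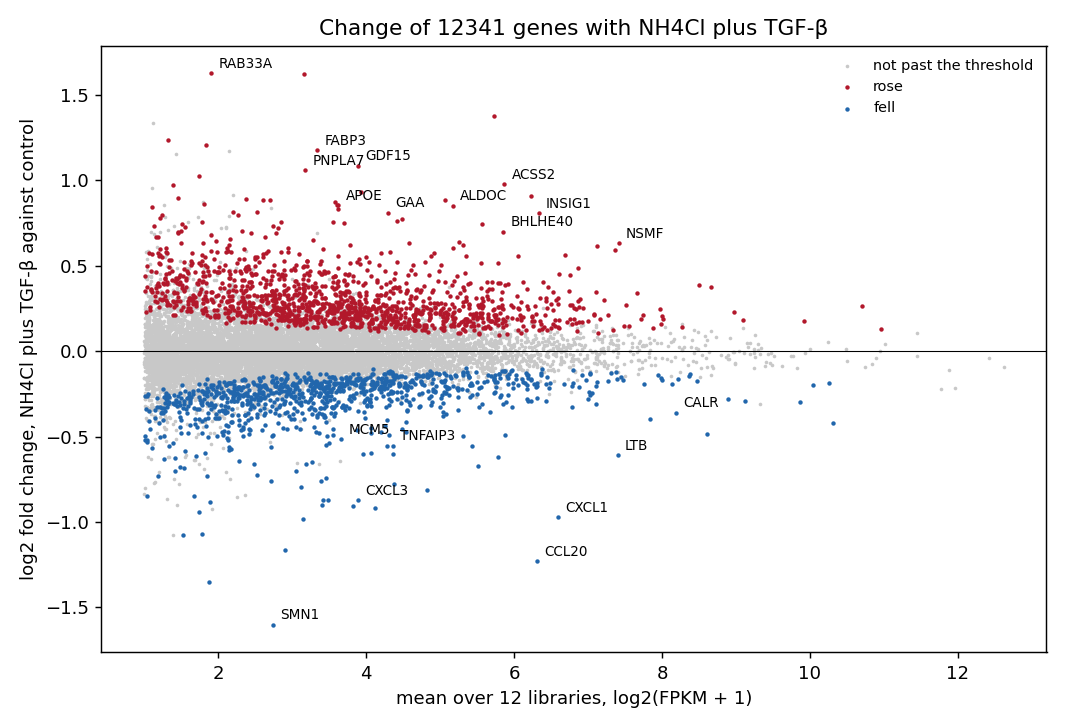
Each of the 12341 genes tested is drawn by its mean log2(FPKM + 1) over the 12 libraries on the x axis and its log2 fold change of FPKM + 1 between combined and control libraries on the y axis. Red points are the 1315 genes that rose, blue points the 959 that fell by limma with the replicate block, and grey points did not pass the threshold. Most changes are smaller than 1 on the log2 scale.

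The gene with the smallest p-value was FABP3, which encodes a fatty acid binding protein (ENSG00000121769, GRCh38 chromosome 1, 31365625 to 31376850). FABP3 stood at 4.60, 4.43 and 7.43 FPKM in control replicates 1 to 3 and at 11.3, 11.03 and 19 FPKM in combined replicates 1 to 3. Every combined library was above every control library, and replicate 3 was the highest of each group. Its log2 fold change was 1.17 ± 0.047, higher in 3 of 3 pairs, with a limma adjusted p of 3.69e-06 that became 0.115 without the block. Here and below, the value after ± is the moderated standard error from the limma model of all 12 libraries with the block. It is not the spread of the 3 pairs alone. The largest rise of a protein-coding gene was that of RAB33A, which encodes a small GTPase of vesicle traffic (ENSG00000134594, GRCh38 chromosome X, 130171649 to 130184870). RAB33A was near the floor of the filter in control cells, at 0.563, 0.926 and 0.805 FPKM, and reached 3.63, 3.90 and 6.04 FPKM with both agents. The groups did not overlap, the log2 fold change was 1.63 ± 0.13, and the limma adjusted p was 0.000101 with the block and 0.0253 without it. At such low values the size depends on the pseudocount, and for RAB33A it was 2.41 with a pseudocount of 0.1 and 2.52 by voom. PNPLA7, which encodes a lysophospholipase, went from 4.29, 4.11 and 6.63 FPKM to 10.6, 10.8 and 12.7 FPKM, a log2 fold change of 1.06. GDF15, a secreted cytokine of the TGF-β superfamily that rises in many stresses, had a log2 fold change of 1.09 with both agents, 1.08 with NH4Cl alone and 0.012 with TGF-β alone, all against the same control libraries. Also among the 10 largest rises were TPSP2, a tryptase pseudogene, with 1.21 and the antisense transcript IGFL2-AS1 with 1.38. No source says that reads were assigned by strand, so the value of an antisense gene is uncertain. A further 3 of the 10 carry no official symbol.

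Among abundant genes with a change of at least 0.5, the 5 with the highest mean FPKM were NSMF, LTB, ASPRV1, TRIB3 and RBCK1. LTB, which encodes lymphotoxin beta of the tumour necrosis factor family, fell from 259, 249 and 116 FPKM in control replicates 1 to 3 to 160.4, 165 and 78.3 FPKM in the combined libraries. The low LTB values of replicate 3 in both groups made the ranges overlap, although each combined library lay below its control partner. NSMF, named for signalling from synapse to nucleus in neurons, rose from 121, 115 and 163 to 186, 190.5 and 241 FPKM with no overlap. RBCK1 encodes a part of the enzyme complex that builds linear ubiquitin chains in NF-κB signalling, and its log2 fold change was 0.56. ASPRV1, an aspartic protease known from skin, had 0.59, and TRIB3, a pseudokinase gene induced by ATF4, had 0.62.

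Cholesterol synthesis had the highest share of rising members among the 37 lists, with 16 of 20 genes higher and none lower, where 10.7% of all genes rose. The median log2 fold change of the list was 0.30, against -0.0017 over all genes. The groups did not overlap for 14 members, all higher, where 1134 of all 12341 genes were higher without overlap. HMGCS1 makes the HMG-CoA from which the pathway starts (ENSG00000112972, GRCh38 chromosome 5, 43289395 to 43313512). It was at 77.5, 78.6 and 89.9 FPKM in control and 102, 104 and 134 FPKM with both agents, and each combined library exceeded all 3 controls. The log2 fold change of HMGCS1 was 0.45 ± 0.042, with a limma adjusted p of 0.000242. MSMO1, a sterol C4 demethylase, had the largest change of the list at 0.52. IDI1, which isomerises isopentenyl diphosphate, had 0.45 and the sterol isomerase EBP 0.45.

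In the list of cholesterol uptake and SREBP control, 8 of 13 genes rose and none fell, with a median of 0.25 on the log2 scale. INSIG1 encodes the protein that holds SREBP in the endoplasmic reticulum when sterols are plentiful and is itself an SREBP target (ENSG00000186480, GRCh38 chromosome 7, 155297776 to 155310235). It stood at 49.8, 45.9 and 81.3 FPKM in control replicates 1 to 3, 83.5, 79.6 and 153 FPKM in the combined libraries, 77.5, 81.03 and 129 FPKM with NH4Cl alone and 49.2, 44.6 and 80.9 FPKM with TGF-β alone. Control replicate 3 was above combined replicate 2, while within each replicate number the combined library was higher. Its log2 fold change was 0.81 ± 0.05, with a limma adjusted p of 2.93e-05 and, without the block, 0.319. NPC2, which binds the cholesterol freed in the lysosome, rose from 12.7, 12.6 and 15.7 FPKM to 20.2, 18.9 and 23.4 FPKM without overlap, a change of 0.58. NPC1, the lysosomal membrane protein that takes cholesterol over from NPC2, changed by 0.23, with a limma adjusted p of 0.00932 that was 0.0536 without control replicate 2. Of the factors themselves, SREBF1 rose with 0.36, and SREBF2 was at 55.7, 57.3 and 57.01 FPKM in control and 54.6, 56.7 and 60.6 FPKM with both agents. SREBF2 did not pass the threshold, at 0.015 and a limma adjusted p of 0.808, and its sign turned without control replicate 3 (-0.017), without combined replicate 3 (-0.0015) and in replicates 1 and 2 alone (-0.021). Side by side, against the shared control libraries, the median of the cholesterol synthesis list was 0.30 with both agents, 0.28 with NH4Cl alone and -0.0018 with TGF-β alone.

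**Figure D2:**
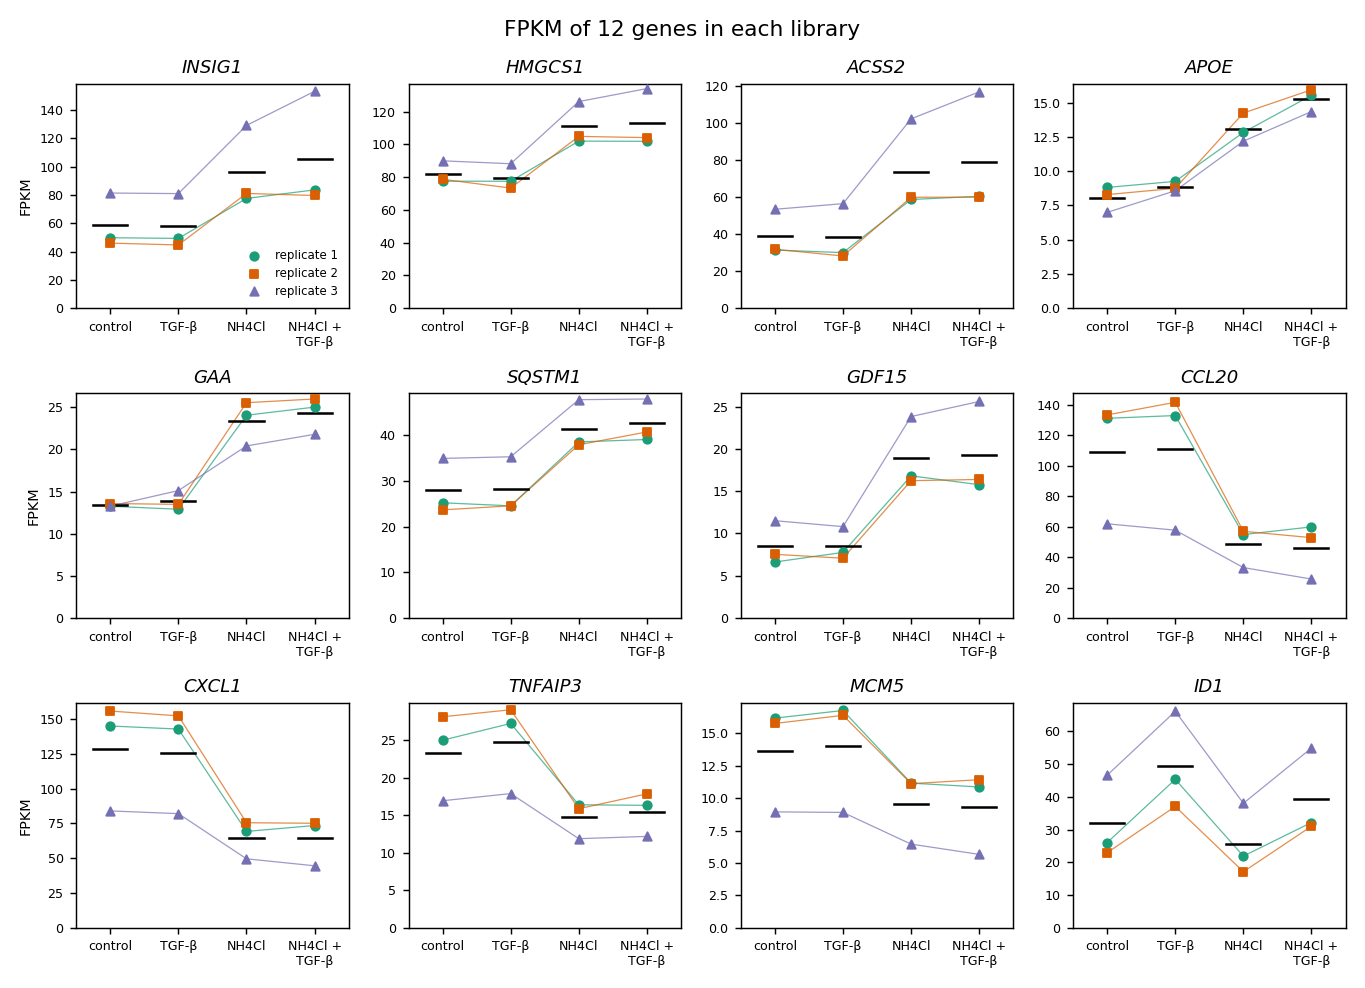
FPKM of 12 named genes in each of the 12 libraries, with the 4 groups on the x axis and FPKM on the y axis from 0. Points are libraries, their colour and marker give the replicate number, lines join libraries of the same number and bars are group means. CCL20 and CXCL1 are lower, and ACSS2, APOE and GAA higher, in every combined library than in any control library.

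Fatty acid synthesis genes followed, with 6 of 12 higher, none lower and a median of 0.16. ACSS2, which makes acetyl-CoA from acetate in cytosol and nucleus, led the list (ENSG00000131069, GRCh38 chromosome 20, 34872146 to 34927962). ACSS2 values were 31.3, 31.7 and 53.3 FPKM in control replicates 1 to 3 and 60.3, 59.9 and 117 FPKM with both agents. The lowest combined library was above the highest control library, and replicate 3 was the high library of each group. Its log2 fold change of 0.98 ± 0.05 had a limma adjusted p of 1.25e-05, and 0.258 without the block. SCD, the desaturase that makes oleate, FASN, the fatty acid synthase, and ACLY, which makes cytosolic acetyl-CoA from citrate, had 0.39, 0.34 and 0.26. Of 7 genes in the list of LXR, the receptors for oxysterols, and their targets, only APOE and APOC1 passed the threshold. These apolipoprotein genes lie in the same cluster on chromosome 19. APOE rose from 8.81, 8.29 and 6.99 FPKM to 15.5, 15.9 and 14.4 FPKM and APOC1 from 8.16, 7.90 and 7.51 FPKM to 16.1, 12.5 and 13.5 FPKM. Neither gene showed overlap between the groups. The changes were 0.85 ± 0.055 and 0.76 ± 0.09, with a limma adjusted p of 0.0109 for each without the block.

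Lysosomal hydrolase and membrane protein genes rose in part, with 12 of 41 higher, 1 lower and a median of 0.11. The groups did not overlap for 12 members on the higher side and 2 on the lower. Over all 12341 genes tested these counts were 1134 and 910. GAA encodes the acid alpha-glucosidase that breaks down glycogen in lysosomes (ENSG00000171298, GRCh38 chromosome 17, 80101556 to 80119879). It was at 13.3, 13.6 and 13.3 FPKM in control replicates 1 to 3, 25.02, 25.99 and 21.8 FPKM in the combined libraries, 24.1, 25.5 and 20.4 FPKM with NH4Cl alone and 12.9, 13.5 and 15.1 FPKM with TGF-β alone. The control values were nearly equal, and every combined library was above them. GAA had a log2 fold change of 0.81 ± 0.082, with a limma adjusted p of 0.000366 and, without the block, 0.0109. The sialidase gene NEU1 rose from 13.5, 11.8 and 17.2 FPKM to 17.6, 17.2 and 22.9 FPKM. The number of members past the threshold was 6 without control replicate 2, 8 without combined replicate 1 and 8 without combined replicate 2. Among 20 genes of the V-ATPase, the pump that acidifies lysosomes, 5 rose and none fell, with a median of 0.10. Its catalytic subunit gene ATP6V1A had 0.24 and the accessory gene ATP6AP1 0.23. Only 2 V-ATPase genes passed without control replicate 1, control replicate 2 or combined replicate 3, and 3 without control replicate 3 or combined replicate 1.

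TFEB, a factor that acts on lysosomal and autophagy genes through CACGTG motifs, was at 3.46, 3.46 and 3.45 FPKM in control and 3.75, 3.57 and 4.58 FPKM with both agents and did not pass the threshold, with a log2 fold change of 0.15. Promoters from RefSeq on GRCh38.p14, 250 bases before to 50 after each start, were found for 8805 of the genes tested and searched on both strands. TCACGTGA was present in 5 of 26 lysosomal promoters, 19.2%, and in 2.02% of all 8805. CACGTG, which TCACGTGA contains, was present in 8 of 26, 30.8%, and in 10.4% of all. Among genes that rose and fell, CACGTG was in 10% and 11.1%. A further motif, TCACNCCAC with N for any base, was searched in the same way as the sterol element of SREBP target genes. It was present in 0 of 15 promoters of cholesterol synthesis and 1 of 11 of cholesterol uptake and SREBP control. That 1 was the promoter of SREBF2, which did not pass the threshold. Among all 8805 promoters it was in 1.07%, and among genes that rose and fell in 1.92% and 0.814%. The promoters of GAA and NEU1, lysosomal genes with large changes, are printed 5′ to 3′ with the motif in capitals, TCACGTGA for GAA (plus strand, chr17:80101331-80101630) and CACGTG for NEU1 (minus strand, chr6:31862772-31863071). The match nearest the upstream end began 77 bases before the start of GAA and 126 bases before that of NEU1, and a match is a description of letters, not of binding. Of the 5 lysosomal genes with TCACGTGA only GAA passed the threshold, and of the 8 with CACGTG only GAA, NEU1 and CD63 did, so most members with the motif did not pass.
GAA: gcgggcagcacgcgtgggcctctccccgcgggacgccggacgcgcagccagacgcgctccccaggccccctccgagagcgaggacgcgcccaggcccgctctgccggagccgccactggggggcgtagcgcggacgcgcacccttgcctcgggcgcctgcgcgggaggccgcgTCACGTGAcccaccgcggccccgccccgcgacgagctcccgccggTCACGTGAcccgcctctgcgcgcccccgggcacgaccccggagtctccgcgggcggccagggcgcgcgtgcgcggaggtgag
NEU1: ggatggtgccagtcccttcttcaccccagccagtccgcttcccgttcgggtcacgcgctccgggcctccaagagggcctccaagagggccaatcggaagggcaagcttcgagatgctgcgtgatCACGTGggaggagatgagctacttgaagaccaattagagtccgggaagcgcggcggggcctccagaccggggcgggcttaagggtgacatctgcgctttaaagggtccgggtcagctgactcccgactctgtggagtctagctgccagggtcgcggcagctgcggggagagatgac

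In the autophagy list 6 of 37 genes rose and 1 fell, about the 18.4% of all genes that passed the threshold, with a median of 0.027. SQSTM1 encodes p62, a receptor that is itself degraded by autophagy (ENSG00000161011, GRCh38 chromosome 5, 179806398 to 179838078). SQSTM1 went from 25.2, 23.7 and 34.97 FPKM in control replicates 1 to 3 to 39.1, 40.8 and 48 FPKM with both agents. All combined libraries were above all control libraries. The change was 0.61 ± 0.057, with a limma adjusted p of 0.000256 and 0.152 without the block. MAP1LC3B, whose protein coats autophagosomes, had 0.21. Without control replicate 1 or control replicate 2 the list had 4 genes past the threshold.

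Chemokine, interleukin and growth cytokine genes had the lowest median of the 37 lists, -0.55 on the log2 scale, with 11 of 15 genes lower and 3 higher, where 7.77% of all genes fell. For 8 of the 15 the combined libraries lay below every control library, which held for 910 of all 12341 genes. CCL20 encodes the ligand of CCR6 that attracts lymphocytes and dendritic cells to gut epithelium (ENSG00000115009, GRCh38 chromosome 2, 227805739 to 227817564). It stood at 131, 133 and 61.9 FPKM in control replicates 1 to 3, 59.9, 52.8 and 25.6 FPKM in the combined libraries, 54.8, 56.9 and 33.1 FPKM with NH4Cl alone and 133, 142 and 57.7 FPKM with TGF-β alone. Replicate 3 was low in each group, and even so the highest combined library lay below the lowest control library. The log2 fold change of CCL20 was -1.23 ± 0.091, lower in 3 of 3 pairs, with a limma adjusted p of 8.49e-05 and 0.251 without the block. CXCL1, a ligand of the neutrophil receptor CXCR2, fell from 145, 156 and 83.9 FPKM to 73.5, 75.1 and 44.5 FPKM (ENSG00000163739, GRCh38 chromosome 4, 73869393 to 73871242). Its groups did not overlap either, and the change was -0.97 ± 0.059 with a limma adjusted p of 2.93e-05. The neighbouring genes CXCL3, CXCL6 and CXCL2, which encode ligands of the same receptor, had -0.87, -0.81 and -0.70. CCL2, which attracts monocytes, had -0.75.

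CXCL8, for the neutrophil chemokine interleukin 8, stood at 60.6, 60.3 and 44.96 FPKM in control and 35.2, 30.9 and 36.1 FPKM with both agents, a change of -0.67 with a limma adjusted p of 0.0205. That value was 0.0809 without control replicate 1, 0.0912 without control replicate 2, 0.0669 without combined replicate 1, 0.0839 without combined replicate 2 and 0.0667 with no filter. TNF, the cytokine that activates NF-κB, had -0.55 and a limma adjusted p of 0.022. For TNF that became 0.0866 without control replicate 1, 0.0696 without control replicate 2, 0.0638 without combined replicate 1, 0.0921 without combined replicate 2 and 0.0687 with no filter. Against the shared control libraries, the median of the whole list was -0.55 with both agents, -0.48 with NH4Cl alone and 0.027 with TGF-β alone.

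NF-κB is the family of factors behind many chemokine genes, and several of its targets encode its own inhibitors. Of 20 subunit and feedback genes, 7 fell and 1 rose, with a median of -0.13. TNFAIP3 encodes A20, a deubiquitinase that limits NF-κB signalling (ENSG00000118503, GRCh38 chromosome 6, 137867188 to 137883312). TNFAIP3 was at 25.03, 28.2 and 16.95 FPKM in control replicates 1 to 3 and 16.3, 17.9 and 12.2 FPKM with both agents. Control replicate 3 lay among the combined values, and each combined library lay below its partner. The change was -0.55 ± 0.058, with a limma adjusted p of 0.000422 and 0.329 without the block. BIRC3, a ubiquitin ligase of TNF receptor signalling, had -0.60, and the inhibitor genes NFKBIZ and NFKBIA -0.39 and -0.35. Of the subunits, NFKB1 fell with -0.28, while RELA, at 20.1, 19.99 and 24.9 FPKM in control and 19.9, 18.8 and 24.98 FPKM with both agents, did not pass the threshold, and its change of -0.033 turned to 0.011 without combined replicate 2. The gene that rose was ICAM1, an adhesion molecule for leukocytes, with 0.33.

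The motif GGNNTTTCC, with N for any base, is part of the NF-κB consensus. Searched on both strands, it was present in 7 of 12 promoters of the chemokine list, 58.3%, in 8 of 18 of the NF-κB list, 44.4%, and in 6.72% of all 8805 promoters. Among genes that fell it was present in 9.63%, and among those that rose in 6.19%. The promoters of the 4 chemokine genes with the largest falls and of TNFAIP3 are shown because these members had large falls. They are printed 5′ to 3′ on the strand of the gene, each match or its reverse complement in capitals, at chr2:227813592-227813891 (plus) for CCL20, chr4:73869143-73869442 (plus) for CXCL1, chr4:74038640-74038939 (minus) for CXCL3, chr4:73836428-73836727 (plus) for CXCL6 and chr6:137867009-137867308 (plus) for TNFAIP3. The first match began 79 bases before the start of CCL20, 78 before CXCL1 and CXCL3, 89 before CXCL6 and 67 before TNFAIP3. These starts are those of RefSeq. For CCL20, TNFAIP3 and GAA the RefSeq start lies inside the gene coordinates given above, which come from GENCODE. Whether NF-κB bound there was not measured.
CCL20: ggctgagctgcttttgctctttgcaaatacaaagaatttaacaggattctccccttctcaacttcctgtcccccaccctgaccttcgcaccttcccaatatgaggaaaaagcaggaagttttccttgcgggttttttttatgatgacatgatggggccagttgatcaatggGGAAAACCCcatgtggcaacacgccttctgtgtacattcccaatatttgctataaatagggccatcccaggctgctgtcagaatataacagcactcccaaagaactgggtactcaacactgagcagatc
CXCL1: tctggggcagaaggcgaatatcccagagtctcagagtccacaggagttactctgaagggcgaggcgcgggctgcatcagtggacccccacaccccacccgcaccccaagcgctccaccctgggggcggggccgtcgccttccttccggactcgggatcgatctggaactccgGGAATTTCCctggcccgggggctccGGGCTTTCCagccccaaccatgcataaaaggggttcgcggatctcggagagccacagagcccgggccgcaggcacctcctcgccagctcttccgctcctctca
CXCL3: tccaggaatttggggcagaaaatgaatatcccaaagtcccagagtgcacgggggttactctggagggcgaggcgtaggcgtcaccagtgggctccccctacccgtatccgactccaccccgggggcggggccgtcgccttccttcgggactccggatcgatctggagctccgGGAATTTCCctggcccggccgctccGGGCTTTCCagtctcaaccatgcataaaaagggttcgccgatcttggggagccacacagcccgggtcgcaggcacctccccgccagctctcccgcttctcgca
CXCL6: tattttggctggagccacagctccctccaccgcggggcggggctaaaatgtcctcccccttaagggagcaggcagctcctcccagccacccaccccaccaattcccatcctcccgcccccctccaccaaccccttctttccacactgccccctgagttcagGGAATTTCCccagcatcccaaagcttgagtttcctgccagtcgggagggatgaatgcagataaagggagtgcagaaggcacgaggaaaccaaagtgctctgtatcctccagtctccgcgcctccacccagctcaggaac
TNFAIP3: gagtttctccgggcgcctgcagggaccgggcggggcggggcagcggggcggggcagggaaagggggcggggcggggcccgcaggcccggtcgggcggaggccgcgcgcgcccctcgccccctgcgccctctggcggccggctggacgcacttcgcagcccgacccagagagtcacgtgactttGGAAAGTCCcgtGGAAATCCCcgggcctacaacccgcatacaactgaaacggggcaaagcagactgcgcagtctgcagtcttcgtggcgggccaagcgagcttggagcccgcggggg

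Of 30 TGF-β ligand, receptor and SMAD genes tested, 3 rose and 2 fell, where 18.4% of all genes passed the threshold. The median was -0.052, and voom called 9. SMAD4 was left out by the filter on FPKM. TGFB1, the ligand gene, had a log2 fold change of 0.39 with both agents, 0.33 with NH4Cl alone and 0.0024 with TGF-β alone. With both agents the limma adjusted p of TGFB1 was 0.00323, and 0.673 without the block. LTBP3, whose protein stores latent TGF-β in the matrix, rose with 0.36, and BMP4, a ligand of the BMP branch, fell with -0.28. TGFBR2 was at 9.25, 9.48 and 11.9 FPKM in control and fell to 8.04, 8.29 and 9.88 FPKM, a change of -0.20. The type I receptor gene TGFBR1 was at 12.7, 12.6 and 11.2 FPKM and 11.5, 12.8 and 10.8 FPKM and did not pass the threshold. Nor did the signal transducers SMAD2, at 0.035, and SMAD3, at -0.043. SPTBN1, for the spectrin that serves as an adaptor of SMAD3 and SMAD4, was at 18.6, 19.9 and 19.7 FPKM in control and 17.1, 20.45 and 22.2 FPKM with both agents. Its groups overlapped, and the change of 0.029 ± 0.058 had a limma adjusted p of 0.766. The sign of SPTBN1 turned without control replicate 3 (-0.0084), without combined replicate 2 (-0.0014) and without combined replicate 3 (-0.022). CEACAM1, for a cell adhesion molecule, stood at 2.57, 2.60 and 2.83 FPKM in control and 3.26, 3.03 and 3.38 FPKM with both agents, with no overlap, and its limma adjusted p was 0.0361 at a change of 0.20. This call ended without control replicate 1 (0.112), control replicate 2 (0.117), control replicate 3 (0.0863), NH4Cl replicate 2 (0.0524), combined replicate 1 (0.128), combined replicate 2 (0.0558) or combined replicate 3 (0.0834), in replicates 1 and 2 alone (0.124), without the block (0.224), with no filter on FPKM (0.0777), with only the 6 libraries in the model (0.0898) and with each library centred on its median (0.0508). CEACAM1 was the 1 gene past the threshold of 2 tested in its family.

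Among 19 early TGF-β targets, 6 rose and 1 fell, with a median of 0.071, and 4 passed the threshold in replicates 1 and 2 alone. The median was 0.10 with TGF-β alone and -0.040 with NH4Cl alone, against the shared control libraries. BHLHE40, for a repressor of the clock and hypoxia responses, led with 35.5, 32.95 and 61.9 FPKM in control replicates 1 to 3 and 56, 53.6 and 106 FPKM with both agents. Control replicate 3 overlapped with combined replicates 1 and 2, and the change was 0.70 ± 0.053 with a limma adjusted p of 8.85e-05. With NH4Cl alone BHLHE40 had 0.56 and with TGF-β alone 0.12. JUNB, for a subunit of AP-1, rose with both agents by a log2 fold change of 0.49 and had 0.25 and 0.32 with each agent alone. In replicates 1 and 2 alone the limma adjusted p of JUNB was 0.0822. CDKN2B, which encodes the cyclin-dependent kinase inhibitor p15, had 0.42 with both agents, 0.38 with NH4Cl alone and -0.05 with TGF-β alone. SMAD7, the inhibitory SMAD that TGF-β induces, had 0.094 with both agents and did not pass the threshold, beside 0.25 with TGF-β alone. TGFBI, a matrix protein named for its induction by TGF-β, fell with -0.31, and its limma adjusted p of 0.00957 was 0.0532 in replicates 1 and 2 alone.

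ID1 encodes an inhibitor of basic helix-loop-helix factors and is a target of BMP and TGF-β signalling (ENSG00000125968, GRCh38 chromosome 20, 31605283 to 31606515). ID1 was at 26.1, 22.9 and 46.6 FPKM in control replicates 1 to 3, 21.9, 17.1 and 38.05 FPKM with NH4Cl alone, 45.4, 37.1 and 66.2 FPKM with TGF-β alone and 32.2, 31.04 and 54.9 FPKM with both agents. Within each replicate number the order was NH4Cl alone, control, both agents, TGF-β alone. The change against control was 0.32 ± 0.066 with both agents (limma adjusted p 0.00987), -0.31 with NH4Cl alone and 0.65 with TGF-β alone. ID1 was also the only gene past the threshold between the combined libraries and NH4Cl alone, with a log2 fold change of 0.62 and a limma adjusted p of 0.0342. That comparison had 0 genes past the threshold in 10 of the 12 fits without 1 library, and also without the block, with no filter, with libraries scaled to a common sum, with only the groups compared, with no intensity trend and in replicates 1 and 2 alone.

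**Figure D3:**
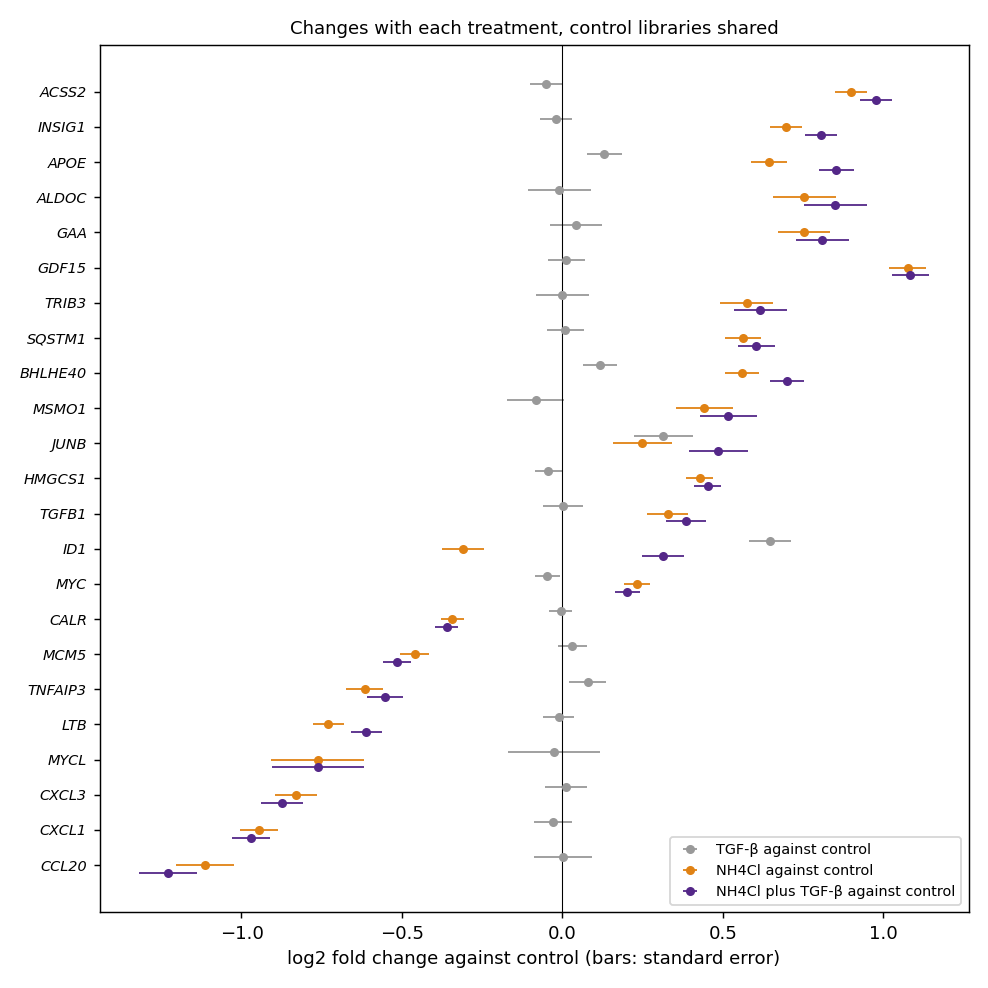
Log2 fold change of FPKM + 1 against control for 23 named genes on the y axis, with a point for TGF-β alone, NH4Cl alone and both agents, and bars of 1 standard error from limma with the replicate block. The 3 treatments share the 3 control libraries. For ID1 the values are 0.65, -0.31 and 0.32, and for CCL20 0.0021, -1.11 and -1.23.

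Between the combined libraries and NH4Cl alone, which differ by the hour of TGF-β, limma called 1 gene of 12341, 0.0081%. The methods do not say plainly whether NH4Cl stayed in the medium during that hour, so the groups may also differ in the hours of NH4Cl. At an unadjusted p under 0.05 there were 879 genes, voom called 2, and limma without the block called 0 with 165 at an unadjusted p under 0.05. After ID1, the smallest p-values belonged to NUDT8, PDXP, TNFRSF4 and TMEM81, each with a limma adjusted p of 0.526 in that comparison. Against control, all 4 rose with both agents. TMEM81, which encodes a membrane protein, went from 1.24, 1.01 and 1.17 FPKM to 2.30, 2.06 and 2.21 FPKM and had 0.58, which was 0.892 with a pseudocount of 0.1 and 0.928 by voom. PDXP, for pyridoxal phosphatase, had 0.34 and TNFRSF4, for the receptor OX40, 0.21. Between the combined libraries and TGF-β alone, which differ by NH4Cl, limma called 2322 genes, 18.8%, with 1275 higher and 1047 lower and 4124 at an unadjusted p under 0.05. Without the block it called 127. The count was 1339 without TGF-β replicate 1, 1249 without TGF-β replicate 2, 1413 without combined replicate 1 and 1427 without combined replicate 2. The interaction asks whether the change with both agents differs from the sum of the separate changes. For it limma called 0 genes, 0%, with 537 at an unadjusted p under 0.05, and voom called 1. That count was 1 without control replicate 2, 1 without TGF-β replicate 3 and 1 in replicates 1 and 2 alone. So the changes with both agents could not be told apart from the sum of the separate changes for any gene at the threshold, which does not show that they were additive. The numbers of genes past the threshold against the shared control libraries were 2274 with both agents, 1674 with NH4Cl alone and 1 with TGF-β alone.

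In the DNA replication list 15 of 27 genes fell, none rose and 12 did not pass the threshold, with a median of -0.21. MCM5 encodes a subunit of the replicative helicase (ENSG00000100297, GRCh38 chromosome 22, 35400063 to 35425430). It was at 16.2, 15.8 and 8.95 FPKM in control replicates 1 to 3 and 10.9, 11.4 and 5.67 FPKM with both agents. Replicate 3 was the low library of both groups, so the ranges overlapped, and each combined library lay below its partner. MCM5 changed by -0.51 ± 0.044, with a limma adjusted p of 0.000147 and 0.58 without the block. POLA1, the catalytic subunit of polymerase alpha, had -0.33 and MCM2, another helicase subunit, -0.31. PCNA, the sliding clamp, had -0.15 and a limma adjusted p of 0.0957, so it did not pass, though it did at 0.0454 without NH4Cl replicate 3 and at 0.0292 by voom. The count was 9 without control replicate 1, 7 without control replicate 2, 9 without combined replicate 1, 9 with no filter on FPKM and 0 without the block. Of 20 mitosis genes 2 rose and 2 fell, where 18.4% of all genes passed the threshold, with a median of -0.066, and voom called 8. In replicates 1 and 2 alone 1 rose and 4 fell. CDC20, which activates the anaphase-promoting complex, fell with -0.20. Without control replicate 1 or combined replicate 2 the mitosis count was 2, and it was 1 without control replicate 2, control replicate 3 or combined replicate 1.

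In the MYC, MAX and MXD network of 15 genes, 3 rose and 2 fell, and in replicates 1 and 2 alone 1 rose and 2 fell. MYC, a driver of growth, was at 214, 212 and 286 FPKM in control replicates 1 to 3 and 244, 229 and 354 FPKM with both agents. Each pair was higher with both agents, and control replicate 3 was above combined replicates 1 and 2. The change of MYC was 0.20 ± 0.04, with a limma adjusted p of 0.00754 that was 0.0652 in replicates 1 and 2 alone and 0.774 without the block. Its relatives MYCL and MYCN fell with -0.76 and -0.52, MYCL from 8.57, 7.89 and 5.42 FPKM to 3.65, 3.95 and 3.86 FPKM without overlap. For MYCN the size was -0.986 with a pseudocount of 0.1 and -1.13 by voom. MLXIPL, for the carbohydrate response factor ChREBP, rose with 0.37.

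Of 18 Wnt target genes, 5 fell and 1 rose, with a median of -0.10. NOTUM, a secreted enzyme that inactivates Wnt ligands, was abundant and fell from 276, 277 and 219 FPKM to 210.4, 205 and 168 FPKM, with every combined library below every control library. The change of NOTUM was -0.40 ± 0.033 with a limma adjusted p of 0.000134. ASCL2, a stem cell factor of the crypt, and EPHB2, a receptor that positions crypt cells, had -0.31 and -0.28. AXIN2, the feedback target often used to read Wnt signalling, had -0.097 and did not pass. Of 17 Notch genes 6 rose and 1 fell, with a median of 0.036, while in replicates 1 and 2 alone 1 rose and 3 fell, with a median of 0.0065. LFNG, a glycosyltransferase that modifies Notch receptors, fell from 68.1, 63.8 and 68.2 FPKM to 48.3, 44.8 and 48.2 FPKM with no overlap, a change of -0.49. The Notch targets HES1 and NRARP rose with 0.45 and 0.35, HES1 with a limma adjusted p of 0.0592 in replicates 1 and 2 alone. The Notch count was 4 without control replicate 1, 3 without control replicate 2, and 4 without combined replicate 1 or combined replicate 2. Of 20 EGFR ligand and ERK feedback genes, 3 rose and 1 fell, about the 18.4% of all genes that passed, and voom called 7, while in replicates 1 and 2 alone 2 rose and 3 fell. DUSP5, a nuclear phosphatase of ERK, rose with 0.44, and EGFR fell from 1.57, 1.62 and 1.55 FPKM to 0.928, 1.04 and 1.07 FPKM, a change of -0.36 that was -0.597 with a pseudocount of 0.1 and -0.638 by voom.

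Of 26 endoplasmic reticulum chaperone and degradation genes 8 fell, none rose and 18 did not pass the threshold, with a median of -0.072. CALR, for the calcium-binding chaperone calreticulin, went from 343, 341 and 295 FPKM to 271, 269 and 223 FPKM, and no combined library reached the lowest control. Its change was -0.36 ± 0.036 with a limma adjusted p of 0.000339. CANX, for calnexin, and PDIA4, a disulfide isomerase, had -0.20 and -0.19. HSPA5, for the chaperone BiP, had -0.16 with a limma adjusted p of 0.00882, and 0.0537 in replicates 1 and 2 alone. The count was 5 without control replicate 3, 5 without combined replicate 3 and 4 in replicates 1 and 2 alone.

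In the ATF4 and integrated stress response list, 8 of 29 genes rose and 1 fell, with a median of 0.091. ATF4 itself was at 175, 170.2 and 225 FPKM in control and 199, 183 and 219 FPKM with both agents and did not pass the threshold. TRIB3 was at 84.4, 76.7 and 172 FPKM in control and 133, 129.9 and 236 FPKM with both agents, higher in 3 of 3 pairs, with the high replicate 3 of control inside the combined range. STC2, for the secreted glycoprotein stanniocalcin 2, had 0.34. The count was 5 without control replicate 1 and 5 without control replicate 2. TGATGNAA, the core of the composite site that ATF4 shares with C/EBP, was present on either strand in 3 of 23 promoters of this list, 13%, and in 1.48% of all. The 3 genes were ATF3, ASNS and CHAC1, and none of them passed the threshold. Of 21 NRF2 targets, genes of the oxidative stress response, 6 rose and 1 fell, with a median of 0.13. AKR1C3, an aldo-keto reductase, rose from 13.2, 11.5 and 14.1 FPKM to 19.3, 16.96 and 15.7 FPKM, a change of 0.40. The NRF2 count was 4 without control replicate 1 and 4 without control replicate 2. HMOX1, for heme oxygenase, had 0.29 and a limma adjusted p of 0.0609, which was 0.0365 without TGF-β replicate 1, 0.0443 without TGF-β replicate 3, 0.0457 with only the 6 libraries in the model and 0.036 by voom. In the iron list 3 of 12 genes rose, none fell and the median was 0.078. TFRC, the transferrin receptor gene, went from 71.6, 71.9 and 86.4 FPKM to 91.4, 95.3 and 95.2 FPKM, a change of 0.30. FTH1, for ferritin heavy chain, had 0.37, but it has many near-identical pseudogenes, so its value is uncertain.

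BBC3, for the pro-apoptotic protein PUMA, rose from 12.8, 11.5 and 22.03 FPKM to 19.04, 17.6 and 34.7 FPKM, a change of 0.58 ± 0.067. The control and combined ranges of BBC3 overlapped through control replicate 3. CCNG1, for cyclin G1, had 0.32. CDKN1A, for the kinase inhibitor p21, was at 0.20 with a limma adjusted p of 0.252. The glycolysis list had 7 of 22 genes higher and 2 lower, with a median of 0.030 and 5 past the threshold with no filter. ALDOC, an aldolase, rose from 17.3, 16.7 and 42.5 FPKM to 34.7, 31.4 and 70.5 FPKM, with replicate 3 far above the others in both groups. PKLR, the liver and red cell pyruvate kinase gene, was low in control at 0.615, 0.809 and 0.533 FPKM and reached 1.54, 1.82 and 1.88 FPKM with no overlap, a change of 0.73 that held without the block at a limma adjusted p of 0.0109. The size for PKLR was 1.31 with a pseudocount of 0.1 and 1.41 by voom. Of 16 hypoxia genes, 3 rose and none fell, about the 18.4% of all genes that passed, with a median of 0.080, and voom called 5. VEGFA, for the angiogenic growth factor, had 0.36.

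Genes that handle acid and ammonia moved in part. Of 14 acid-base transporters and carbonic anhydrases, 4 rose and 1 fell, with a median of 0.013. SLC9A3 encodes a sodium-proton exchanger of the gut epithelium and rose from 3.45, 3.32 and 4.60 FPKM to 5.41, 5.91 and 6.63 FPKM, with no overlap and a change of 0.55. CA11, a carbonic anhydrase relative without enzyme activity, rose from 3.42, 3.98 and 3.61 FPKM to 6.14, 5.77 and 5.45 FPKM and also passed without the block. SLC26A6, a chloride-bicarbonate exchanger, and SLC4A7, a sodium bicarbonate cotransporter, had 0.35 and 0.30. In ammonia, glutamine and urea metabolism, 6 of 20 genes rose and 3 fell, with a median of 0.0046. ARG2, the mitochondrial arginase gene, had 0.38, and GOT1, an aspartate aminotransferase, 0.34. GLUD1, for glutamate dehydrogenase, had 0.21. ASL, argininosuccinate lyase of the urea cycle, fell with -0.30. Among 21 amino acid transporters 2 rose and 1 fell, where 18.4% of all genes passed. The transporter count was 0 without control replicate 1 or combined replicate 3, and 1 without control replicate 2 or control replicate 3, by limma with the block, where 6 members had an unadjusted p under 0.05 with all libraries and voom called 4.

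**Figure D4:**
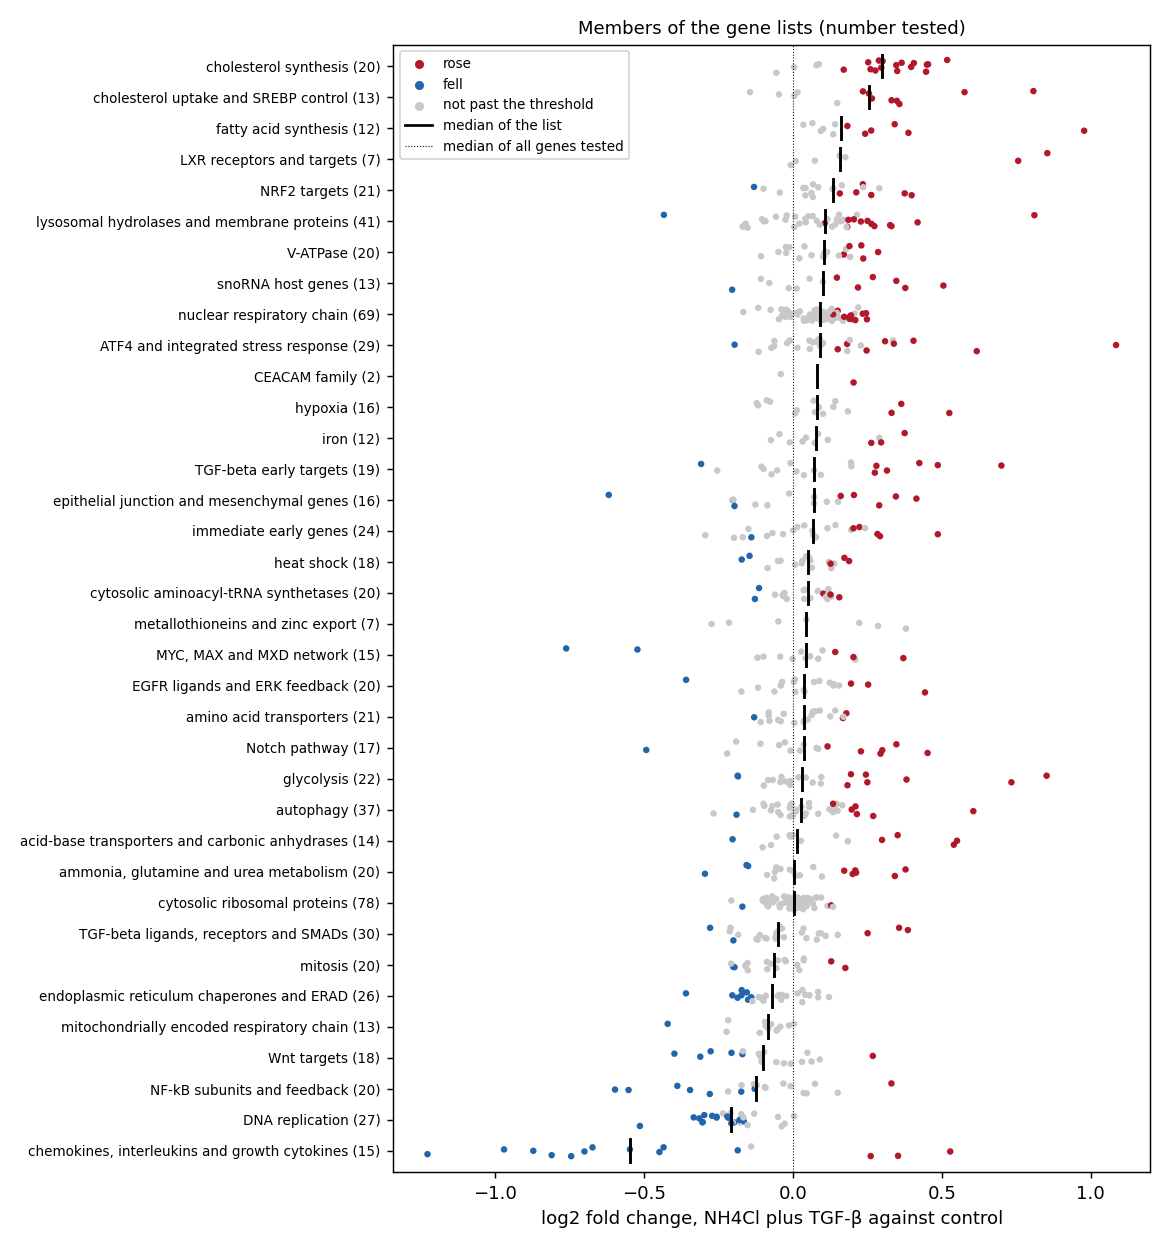
Each point is a tested member of a gene list, drawn by its log2 fold change of FPKM + 1 between combined and control libraries on the x axis, with 36 of the 37 lists on the y axis. Black bars are list medians and the dotted line is the median of all 12341 genes. The chemokine list lies lowest, with a median of -0.55, and the cholesterol synthesis list highest, with 0.30.

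Of 16 epithelial junction and mesenchymal genes, 5 rose and 3 fell, and 5 passed the threshold without control replicate 1, 2 or 3, without combined replicate 1 or 3, and in replicates 1 and 2 alone. CLDN1, a tight junction claudin, fell from 70.2, 69.6 and 55.5 FPKM to 43.8, 42.7 and 38.99 FPKM without overlap, a change of -0.62 ± 0.063. CLDN4, another claudin, rose with 0.35. CDH1, for E-cadherin, had -0.20 and a limma adjusted p of 0.021. The CDH1 call ended without control replicate 1 (0.0708), control replicate 3 (0.0833), combined replicate 1 (0.064) or combined replicate 3 (0.0743), and in replicates 1 and 2 alone (0.112). Of 24 immediate early genes, which answer to stimuli within minutes, 5 rose and 1 fell, with a median of 0.067, and 3 passed without control replicate 2. In replicates 1 and 2 alone none rose and 2 fell, with a median of -0.019. The nuclear receptor gene NR4A1 had 0.28, with a limma adjusted p of 0.0632 in replicates 1 and 2 alone.

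Nuclear genes of the respiratory chain rose in 11 of 69 cases and fell in none, where 18.4% of all genes passed the threshold, with a median of 0.092. SDHB, the iron-sulfur subunit of succinate dehydrogenase, rose from 48.7, 47.4 and 48.3 FPKM to 60.3, 57.5 and 54.1 FPKM, with no overlap and a change of 0.25. The count was 6 without control replicate 1, 4 without control replicate 2, 7 without control replicate 3, 5 without combined replicate 1 and 6 with no filter. Of the 13 mitochondrially encoded genes of the chain 1 fell, MT-CYB, for cytochrome b, with -0.42 and a limma adjusted p of 0.0175. It became 0.0745 without control replicate 2, 0.0661 without control replicate 3, 0.0903 in replicates 1 and 2 alone and 0.0704 with no filter, and without combined replicate 1 the list had 3 genes past the threshold. Host genes of small nucleolar RNAs rose in 6 of 13 cases and fell in 1, with a median of 0.10, led by SNHG3 with 0.50. That count was 4 without control replicate 1, 3 without control replicate 2, 4 without combined replicate 1 and 4 with no filter.

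The remaining lists are to be read beside the 18.4% of all genes that passed the threshold. Of 18 heat shock genes 3 rose and 2 fell, with a median of 0.049, and the count was 1 without control replicate 1, 2 or 3 or combined replicate 1 or 2, and 3 without TGF-β replicate 2. HSPA8, the constitutive chaperone gene of the HSP70 family, fell with -0.17, and its limma adjusted p was 0.0669 in replicates 1 and 2 alone. Of 20 cytosolic aminoacyl-tRNA synthetase genes 3 rose and 2 fell, with a median of 0.048. In replicates 1 and 2 alone 6 rose and none fell, with a median of 0.090. By limma the synthetase count was 0 without control replicate 1, control replicate 2, combined replicate 1 or combined replicate 2, 1 without control replicate 3, and 3 without TGF-β replicate 1 or NH4Cl replicate 1, while 8 had an unadjusted p under 0.05 with all libraries and voom called 7. Of 78 ribosomal protein genes 1 rose and 1 fell, with a median of 0.0042. With a common sum of all genes 4 rose and 1 fell. Leaving out 1 library gave 0 to 6, where 9 had an unadjusted p under 0.05 by limma with all libraries and voom called 6. The ribosomal count was 0 without any of the control replicates, TGF-β replicate 1 or 2, or combined replicate 2, it was 1 without TGF-β replicate 3, NH4Cl replicate 2 or combined replicate 3, and it was 6 without combined replicate 1. Of 7 metallothionein and zinc export genes limma called 0, with 2 at an unadjusted p under 0.05, 2 by voom and 1 without combined replicate 1 or combined replicate 3.

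Several of the largest falls belong to genes whose values are uncertain. SMN1, the survival motor neuron gene, was at 13.8, 6.77 and 17.3 FPKM in control replicates 1 to 3 and at 3.15, 2.79 and 3.78 FPKM with both agents, a change of -1.60 ± 0.21. With NH4Cl alone it was at 3.20, 3.34 and 4.02 FPKM and with TGF-β alone at 3.73, 3.55 and 2.95 FPKM, so the control libraries stood above those of every treatment. Its near-identical copy SMN2 was at 2.94, 3.00 and 3.25 FPKM in control and 3.92, 3.26 and 2.86 FPKM with both agents and did not pass the threshold, and its change of 0.091 turned to -0.0051 without control replicate 1. Reads can be assigned to either copy, which makes both values uncertain. The short genes SNORD12B and SNORA5A, for small nucleolar RNAs, MT-TI, for a mitochondrial tRNA, and TRBJ2-7, a joining segment of the T cell receptor, also stood among the 10 largest falls. Their transcripts are shorter than most fragments of such libraries, so no values are given for them. A further 3 of the 10 carry no official symbol.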

How the data were processed

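RNA sequencing of 12 HCT116 libraries, 3 in each of 4 groups, was read from FPKM values in a table deposited by the authors. The submitters' notes name Trimmomatic 0.36, STAR 2.5.2b, featureCounts of Subread 1.5.2, DESeq2 and GRCh38, and the paper's methods name HTSeq 0.11.1, so which tool made the counts is not settled. The notes and the methods also name different RNA kits. Group and replicate came from the labels, doses and hours from the paper's methods. All 25733 identifiers matched GENCODE 29, which gave coordinates. FPKM times exon length gave whole numbers of reads, within 0.05, for 100% of values, and 14807630 to 18191998 reads on genes in a library.

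A mean of 1 FPKM or more over the 12 libraries was required, which 12341 genes met, and these were tested as log2(FPKM + 1), with a pseudocount of 1, by limma 3.58.1 in R 4.3.3, two-sided, with an intensity trend, 4 group means and the replicate number as a block. Libraries were paired by their replicate number. Deviations from the group means were correlated in all 18 pairs of libraries with the same number, at 0.349 to 0.774. Libraries with different numbers were not compared in this way. Because replicate 3 stood apart from replicates 1 and 2, these correlations cannot show that replicates 1 and 2 are matched between groups. The block was kept for the results given first with both counts already known, 2274 genes with it and 117 without it. Comparisons were both agents against control, against NH4Cl alone and against TGF-β alone, and the interaction. P-values were adjusted by the Benjamini-Hochberg method over the 12341 genes. Other steps used Python 3.11.15, numpy 2.4.6 and pandas 2.3.3, and matplotlib 3.10.9 drew the plots.

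Genes to name were taken by a rule. They were TGFB1, MYC, SMAD3, SPTBN1 and CEACAM1, the 10 largest rises and 10 largest falls past the threshold with 3 of 3 pairs alike, and the 5 most abundant such genes with a change of at least 0.5. They were also the 4 members with the largest change past the threshold in each of 37 gene lists with genes at the head of a pathway, and the 5 genes with the smallest p between both agents and NH4Cl alone. Which genes count as the head of a pathway was settled after values were seen, and the text names part of the 182 genes taken. The members and lists were chosen with earlier results of these data known, and lists were written from general knowledge. Each list is described by counts and its median. Promoters came from RefSeq on GRCh38.p14.

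Alternatives were no block, a pseudocount of 0.1, no filter, a filter at 5 FPKM, libraries scaled to 1 common sum, libraries centred by their medians, a model of the compared groups alone, no intensity trend, a change of at least 0.5 as a further threshold, replicates 1 and 2 only, voom on recovered reads, and each library left out in turn. Scaling to 1 common sum of nuclear genes was chosen after seeing the data. Genes under the filter were left out, and genes without an official symbol are given by count. The results of 8 genes and 1 gene list are not reported here, and these genes stay within the counts.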

Additional observations from a re-analysis of the deposited data

Results flagged for a closer look

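NUDT8, for a nudix hydrolase, was noted because its value was lower with NH4Cl in the absence of TGF-β and higher with NH4Cl in its presence, a pattern that did not pass the threshold. It stood at 10.7, 11.5 and 9.42 FPKM in control replicates 1 to 3 and 13.4, 13.2 and 10.9 FPKM with both agents. With NH4Cl alone it was lower than control in 3 of 3 pairs, by 0.072 with a limma adjusted p of 0.392, and with both agents it was higher than with TGF-β alone in 3 of 3 pairs. The difference between the changes was 0.342 on the log2 scale, with a limma adjusted p of 0.992 for the interaction. The rise of NUDT8 with both agents against control, 0.22 with a limma adjusted p of 0.0163, ended without control replicate 1 (0.0725), control replicate 2 (0.0693), combined replicate 1 (0.0671), combined replicate 3 (0.0526) and without the block (0.548).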

How the results depend on the processing

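Of the 3976 values of 182 named genes under alternatives other than the block, 3595 kept their direction and their side of the threshold, 366 lost the call, 6 gained it and 9 turned in sign. Without the block, 30 of 182 kept direction and side and 152 lost the call, and the count of members past the threshold fell by over 1.5 times in 35 of 37 lists. Why was not tested. Some alternatives leave fewer libraries or genes, while the fit without the block keeps all of them.

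For both agents against control, 2274 genes became 117 without the block on replicate number. They became 214 with a change of at least 0.5 as a further threshold. The count was 1518 with only the groups compared, 1625 with no filter, 1605 in replicates 1 and 2 only and 2931 by voom. Leaving out 1 library gave 1169 to 2348. Against NH4Cl alone, 1 gene became 0 without the block, with no filter, with libraries scaled to 1 common sum or to 1 common sum of nuclear genes, with only the groups compared, with no intensity trend and in replicates 1 and 2 only, and 2 by voom, while limma gave 879 at an unadjusted p under 0.05 and leaving out 1 library gave 0 in 10 of the 12 fits and 1 in the other 2. Against TGF-β alone, 2322 became 127 without the block, 1125 with only the groups compared and 202 with the further threshold, and leaving out 1 library gave 1249 to 2365. For the interaction, limma gave 0 genes with 537 at an unadjusted p under 0.05, 1 in replicates 1 and 2 only, 1 by voom and 0 to 1 without 1 library. The cause was not tested.

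The sign turned for 4 genes that were not past the threshold, and leaving out 1 library gave -0.0217 to 0.111 for SPTBN1, -0.0171 to 0.0408 for SREBF2, -0.0637 to 0.0109 for RELA and -0.00514 to 0.225 for SMN2. SPTBN1 was at -0.0372 in replicates 1 and 2 only, -0.00841 without control replicate 3, -0.00139 without combined replicate 2 and -0.0217 without combined replicate 3. SREBF2 was at -0.0214 in replicates 1 and 2 only, -0.0171 without control replicate 3 and -0.0015 without combined replicate 3. RELA was at 0.0109 without combined replicate 2, and SMN2 at -0.00514 without control replicate 1.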
